A study of Mus musculus with 8 samples.

Results

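Hippocampal RNA of mice carrying the Y402F substitution in Pyk2 was compared with that of the wild-type controls of the same line. Pyk2 is a tyrosine kinase encoded by Ptk2b, and Y402F replaces one tyrosine with phenylalanine (the number in its name is the residue's position). The comparison takes the 2 libraries labelled as hippocampus of the Y402F mutant and the 2 labelled as wild-type controls of that mutant, 4 of the 8 libraries of the series. The other 4 are 2 libraries of a Pyk2 knockout (KO) and 2 of its own wild-type controls. They serve here as a second mutant line, and also enter the gene filter, the scaling and the estimate of spread behind the p-values. All 8 come from C57BL/6 mice, both mutants were made with CRISPR, and the labels call the animals transgenic. The labels give neither age nor sex, do not state whether RNA of several animals was pooled, and do not give the number of founders of a line. The p-values below therefore measure the spread between libraries, which may be partly technical. The 2 mutant groups were deposited in one kind of table and the 2 control groups in another, so genotype and table type cannot be told apart in any comparison of a mutant with its controls.

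Pyk2 and its paralog focal adhesion kinase (FAK, gene Ptk2) are cytoplasmic tyrosine kinases that couple calcium, integrins and receptors to Src-family kinases. When Pyk2 is activated it phosphorylates that tyrosine in itself, and the phosphorylated residue is a docking site for the SH2 domain of Src-family kinases. Pyk2 is abundant in the forebrain, where it is known for links to NMDA receptors and postsynaptic scaffolds. A tyrosine-to-phenylalanine change at this position keeps the protein but removes the docking residue.

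The codon that the substitution concerns is shown with its flanks, beside the matching codon of the paralog, because the deposited tables measure levels and carry no base calls. Both are coding strand, wild-type reference sequence of GENCODE M21 on GRCm38, with 30 bases on each side and the tyrosine codon in capitals. In Ptk2b (transcript Ptk2b-201) the codon named by Y402F lies in exon 14 of 31, at chr14:66173875-66173877 on the minus strand. In Ptk2 (transcript Ptk2-208) codon 397 lies in exon 16 of 34, at chr15:73276900-73276902 on the minus strand.
Ptk2b codon of Y402F: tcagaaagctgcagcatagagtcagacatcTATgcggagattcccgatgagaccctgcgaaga
Ptk2 codon 397: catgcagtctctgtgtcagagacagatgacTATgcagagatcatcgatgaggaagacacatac
Of 19 residues compared around and including the tyrosine, 8 are the same in both kinases. The edited bases of the mutant line are not given in the sources used here and were not checked.

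Ptk2b transcript was kept in Y402F hippocampus. Levels are FPKM, fragments normalized to transcript length and library total, divided by a library factor (scaled FPKM). Ptk2b was at 352 and 394 in the Y402F libraries and at 322 and 316 in their controls, so both mutant libraries lay above both controls. The difference was 0.22 on the log2(scaled FPKM + 1) scale (SE 0.11, limma adjusted p = 0.143), which did not pass the threshold of 0.05. It passed at 0.36 with quantile normalization (limma adjusted p = 0.0128) and at 0.34 with a term for the sex pattern of each library (0.00738). That term cannot tell sex from replicate number, because only the mutant groups hold both patterns, replicate 1 female and replicate 2 male. The KO libraries held 55.8 and 68.4 against 308 and 307 in KO controls. The difference of the Y402F and KO effects on Ptk2b was 2.52 (SE 0.15, limma adjusted p = 0.000408). The gene spans chr14:66153257-66281052 on the minus strand, and 7600 and 8813 expected counts stood behind the Y402F values.

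Ptk2, the paralog (chr15:73205102-73423280, minus strand), was at 21.6 and 21.2 scaled FPKM in Y402F and at 26.7 and 21.3 in the controls. Y402F replicate 1 lay above control replicate 2, so the groups overlapped. The Y402F mean lay below the control mean by less than the controls differed from each other. The difference was -0.15 (SE 0.17, limma adjusted p = 0.530), and its sign turned with quantile normalization and without control replicate 1. Levels of these and other genes that recur below are plotted by library.

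**Figure D1:**
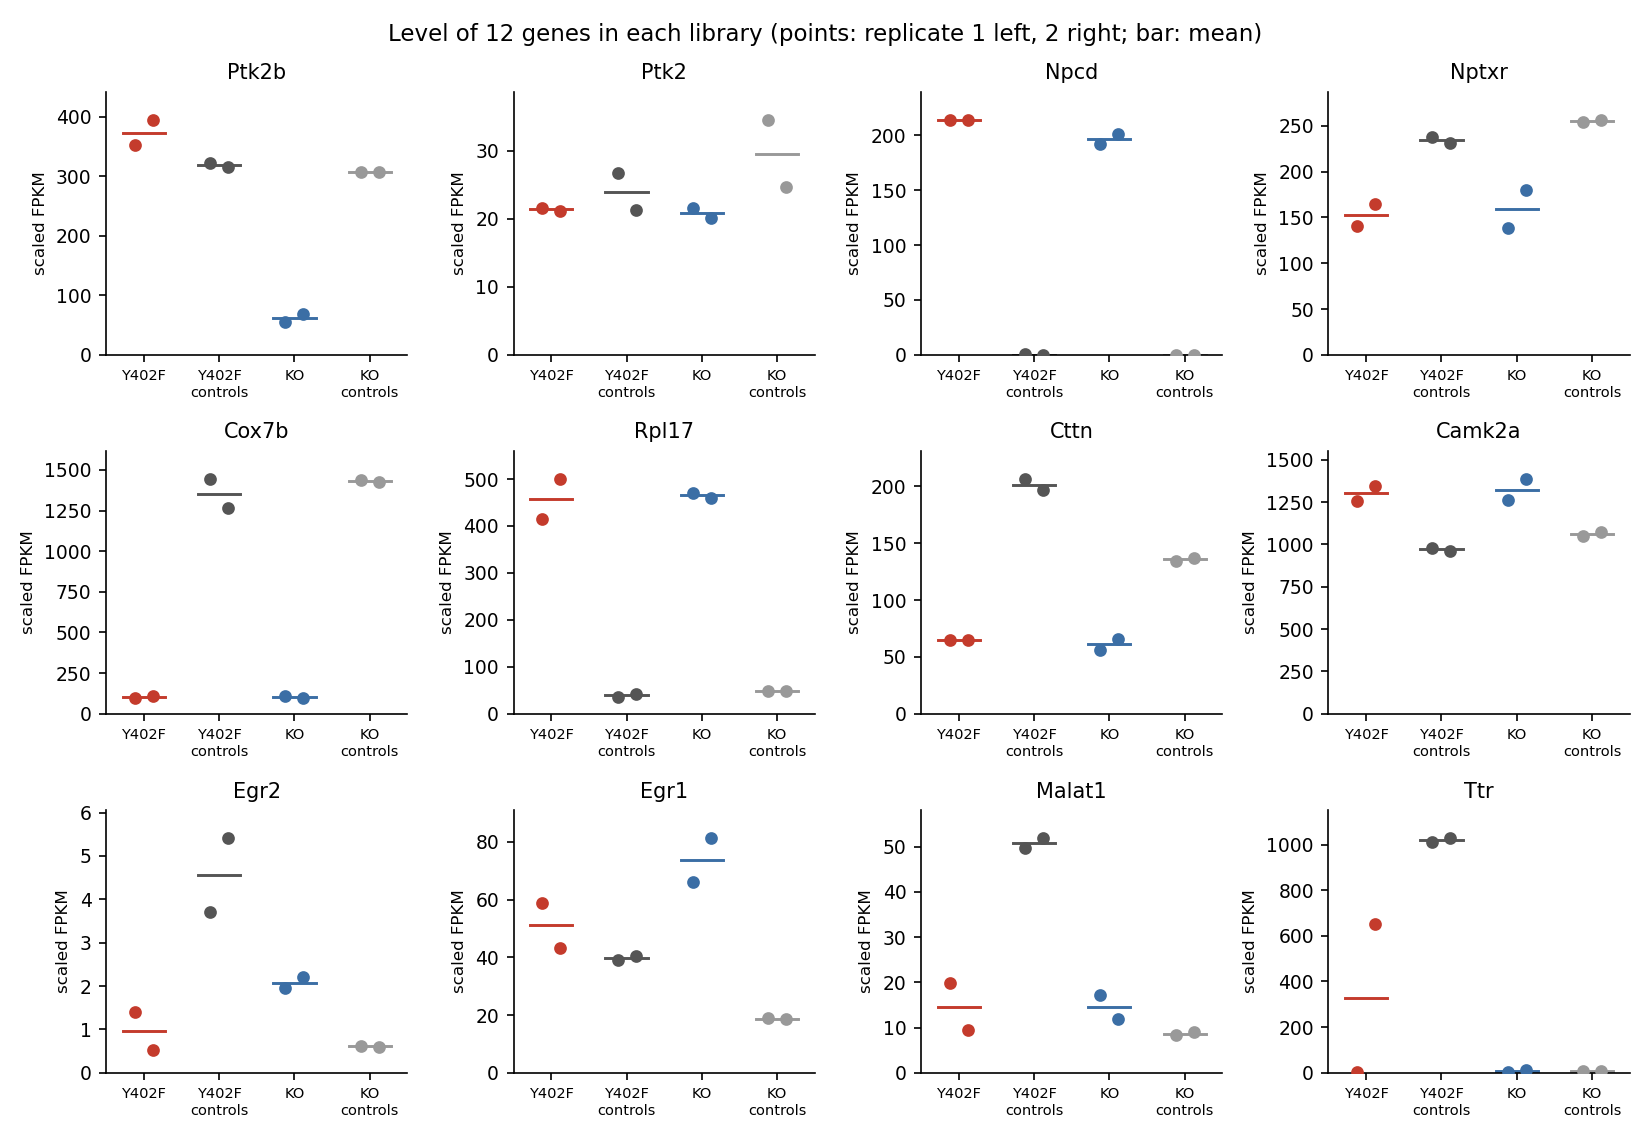
Scaled FPKM of 12 genes in each of the 8 libraries (points, replicate 1 on the left and 2 on the right) with the group mean as a bar. Ptk2b was low in the KO libraries, with 55.8 and 68.4, and Npcd was at 214 in both Y402F libraries against 0.476 and 0 in their controls.

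Composition differed between the table types. The Y402F libraries summed to 5825061 and 6017219 expected counts, while the control tables hold no counts and their depth is unknown. The short neuronal RNA Bc1 took 53.1 and 54.4% of the FPKM of the shared genes in the controls and 3.11 and 5.35% in Y402F. Replicates differed by a median absolute log2 gap of 0.188 in Y402F and 0.154 in the controls. Y402F replicate 1 had a female pattern (Xist 40.0, Ddx3y 0.0422 scaled FPKM), whereas replicate 2 (Ddx3y 4.72) and both controls (5.75 and 4.76) had a male one. In the KO line replicate 1 of the mutant and both controls had a female pattern and replicate 2 of the mutant a male one. A term for sex pattern therefore rests on replicate 1 against replicate 2 of the mutants. Defining markers of hippocampal tissue were present in all 4 libraries of the Y402F comparison. They included Prox1 of dentate granule cells (15.4 to 19.7 scaled FPKM) and Wfs1 of CA1 (53.4 to 75.5). Gad1 of interneurons, Gfap of astrocytes and Mbp of oligodendrocytes were among them as well.

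Of 12973 genes tested, 4192 (32.3%) were called at a limma adjusted p under 0.05. They divide into 1686 higher (13%) and 2506 lower (19.3%) in Y402F than in its controls. The 4 libraries did not overlap between the groups for 8899 genes (68.6%). The split between directions depended on the scaling. Higher genes made up 40.2% of the calls with median-of-ratios scaling, 23.9% without scaling (987 higher, 3137 lower), 55.9% with quantile normalization (2730 and 2155) and 96.4% with scaling by the sum (9978 and 369). These settings moved the median of all genes by -0.12, 0.09 and 1.03, so directions below are relative to the median gene. Genes whose sign turned with a scaling have those values in the closing section. Without Y402F replicate 1, 1133 genes were called higher and 1705 lower. Without Y402F replicate 2 the counts were 1134 and 1775, without control replicate 1 they were 1009 and 1995, and without control replicate 2 they were 944 and 1985. Through all 4 of these fits 2028 of the calls held (48.4%), 704 higher and 1324 lower. With a term for sex pattern, which follows replicate number in the mutants, 3494 of the calls held. A fit of only the 4 libraries of the Y402F line called 3572 genes, 1307 higher and 2265 lower.

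Most of the Y402F calls were also calls of the knockout against its own controls. That comparison shares no library with this one but has the same split of table types. Both come from the same fit, in which each gene has a shared estimate of spread, so calls in the lines are not independent. Of 4882 KO calls (37.6% of genes tested), 2160 were higher (16.6%) and 2722 lower (21%). In the same direction in both lines were 3007 genes, 1173 higher and 1834 lower, which is 71.7% of the Y402F calls and 61.6% of the KO calls. Opposite directions were called for 12 genes, and 4000 of the Y402F calls (95.4%) had the same sign in KO. Of the 2028 calls that held without each library, 1813 (89.4%) were called in KO in the same direction. Across genes the effects correlated with a Pearson r of 0.82 and a Spearman coefficient of 0.75, a description of 12973 genes that share libraries within each line. A direct test of the difference of the effects called 4 genes (0.0308%), Ptk2b among them, and 1690 (13%) had an unadjusted p under 0.05. The plot of the Y402F effect against the KO effect shows the genes along the diagonal.

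**Figure D2:**
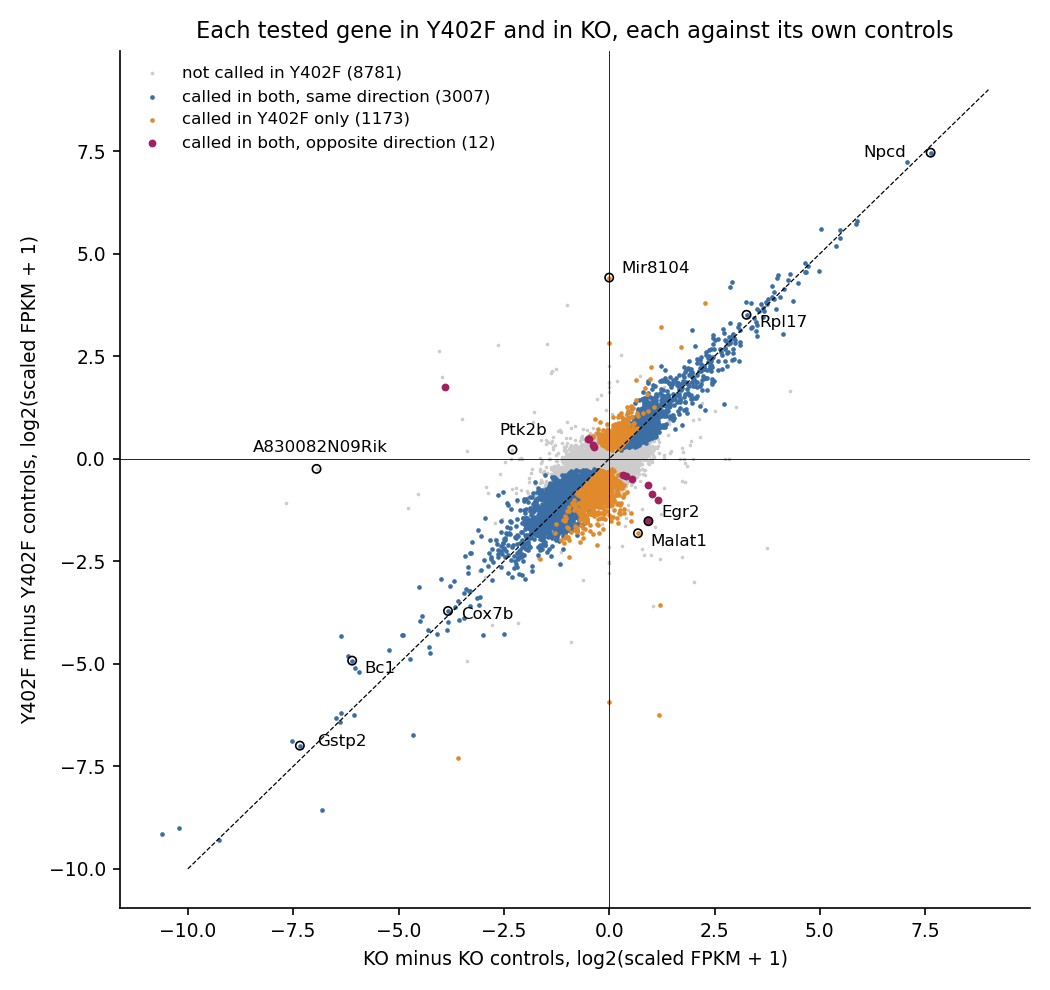
Each point is 1 of the 12973 genes tested, with the KO difference from KO controls on the horizontal axis and the Y402F difference from its controls on the vertical axis, both in log2(scaled FPKM + 1). The 3007 genes called in both lines in the same direction lie along the dashed line of equal effects, while Ptk2b (0.22 in Y402F, -2.29 in KO) lies off it.

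The largest rises were genes that share exon sequence with an expressed neighbour. Npcd, at chr15:79789675-79834237 on the minus strand, was at 214 and 214 scaled FPKM in Y402F and at 0.476 and 0 in the controls (log2 difference 7.46, SE 0.18, limma adjusted p = 1.72e-07). Its exons share 890 bases on the same strand with Nptxr, the neuronal pentraxin receptor, which fell from 238 and 232 to 140 and 164 (-0.63, limma adjusted p = 0.00661). Nptxr lost its call without Y402F replicate 1 (-0.51, limma adjusted p = 0.0524). Nptxr and the other neighbours named here are not taken by the naming rule; they were chosen after seeing their values. Chn1os3 was at 65.2 and 59.1 against 0 and 0.275 (5.80), and its exons share 220 bases on the opposite strand with Chn1. Chn1, which encodes the Rac-inactivating protein chimaerin, fell from 920 and 933 to 501 and 473 (-0.93, limma adjusted p = 3.02e-05). Grin1os, antisense to the NMDA receptor gene Grin1, was at 31.0 and 34.9 against 0.498 and 0.363 (4.57), while Grin1 itself was at 135 and 151 against 170 and 172 (-0.26, limma adjusted p = 0.154, and called without scaling at -0.41, 0.0363). Fam219aos, at 47.6 and 57.2, and Gdf1, a growth factor gene that shares exons with Cers1, at 45.4 and 49.8, are listed at 0 in both controls. The other members of the 10 largest rises were Tmem150b, Gpr39, Slc3a1, Cntd1 and Mybph, each overlapping another gene. In every one of these 10 the KO libraries were higher than KO controls as well, and all 10 were called there. The sources used here do not state if counting used the strand, so reads of overlapping genes cannot be told apart.

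The largest falls included several near-identical gene copies. Gstp2, a glutathione transferase gene, was at 0 and 0.757 scaled FPKM in Y402F and at 169 and 167 in the controls (-7.00, SE 0.30, limma adjusted p = 1.84e-06). Its near-identical neighbour Gstp1 was at 196 and 235 against 150 and 140, and the log2 ratio of the summed pair was -0.54. Tuba1c, an alpha-tubulin gene, was at 0.854 and 1.55 against 78.9 and 78.9 (-5.20), and with its copy Tuba1b the summed pair had a log2 ratio of 0.98. Hmga1b, listed at 0 in both Y402F libraries against 30.2 and 19.4, had a log2 ratio of -0.11 when summed with Hmga1. The division of reads between such copies is uncertain in both kinds of table. Gas5, a noncoding host of small nucleolar RNAs, was at 14.5 and 13.4 against 363 and 357 (-4.59, SE 0.14, limma adjusted p = 4.6e-07). Snurf, part of the imprinted Snrpn locus, was at 28.2 and 60.6 against 1467 and 1460 (-5.11). Snrpn itself was at 630 and 612 against 452 and 456, and the log2 ratio of the sum of both was -1.53.

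Bc1, a dendritic noncoding RNA that represses translation (chr7:144914470-144914637), was at 12487 and 23073 scaled FPKM in Y402F and at 502590 and 527100 in the controls (-4.92, SE 0.23, limma adjusted p = 2.42e-06). Its KO difference was -6.10. Under quantile normalization Bc1 had a difference of 0, since it is the highest gene of every library. Nbr1, an autophagy receptor gene, was at 38.3 and 37.7 against 2436 and 3937 (-6.31), and the chromatin remodeller gene Chd9 was at 4.85 and 3.45 against 150 and 148 (-4.88). Ulk4 fell from 44.0 and 37.3 to 1.23 and 1.02 (-4.29). It overlaps Ctnnb1, the beta-catenin gene, on the opposite strand, and Ctnnb1 fell from 350 and 387 to 126 and 131 (-1.51, limma adjusted p = 5.05e-06). Bud23, an RNA methyltransferase gene, fell from 322 and 336 to 13.6 and 18.9 (-4.27). All 10 of these falls were called lower in KO. For Ulk4 the KO difference was -2.99, and for Bud23 it was -2.50. The effects of the 2 lines on both genes differed at unadjusted p of 0.00128 and 0.00169, neither of which passed the adjustment (0.152 and 0.156).

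The size of a difference moved with features of the gene model, which were examined after the data were seen. Among the 8781 genes not called, 34.7% had an exon that overlaps an exon of another gene and 3.64% were not protein coding. These shares were 36.6 and 1.33% for the 2702 calls under 1, 46.2 and 7.69% for the 1196 calls between 1 and 2, and 54.3 and 25% for the 184 calls between 2 and 3. Among the 110 calls of 3 or more they were 55.5 and 51.8%. A small RNA gene lay inside 7.27% of these 110, against 13.4% of all genes tested. The share called in KO in the same direction ran from 64.5% for calls under 1 to 95.7 and 93.6% in the top classes.

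**Figure D3:**
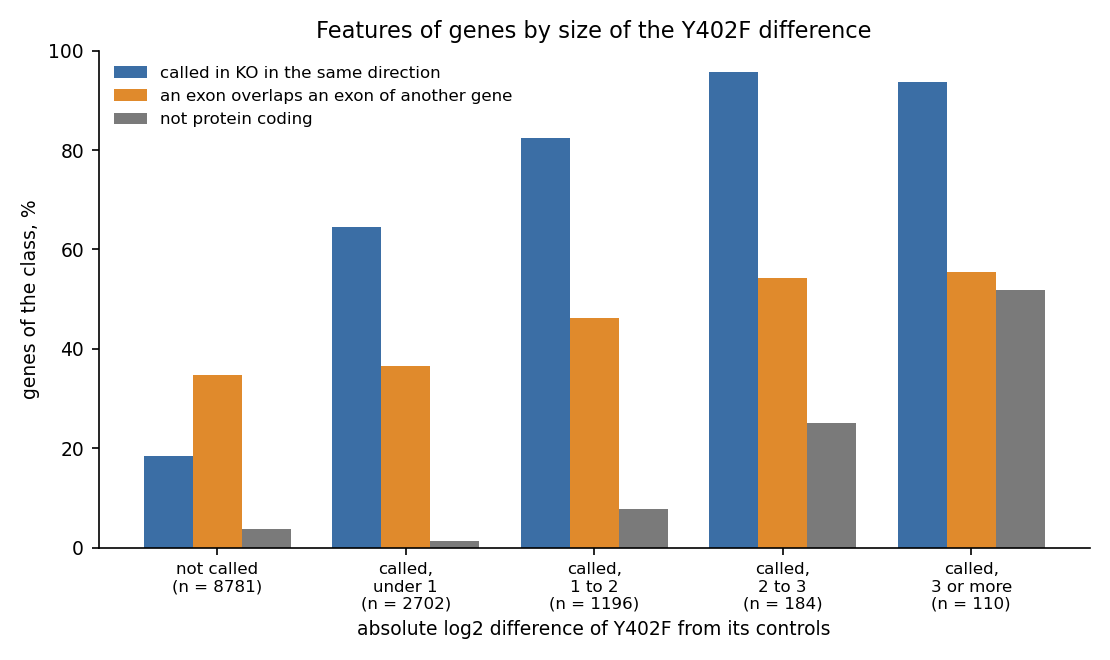
Genes grouped by whether they were called in Y402F and by the absolute log2 difference, with the percentage of each class that was called in KO in the same direction, that has an exon overlapping an exon of another gene, and that is not protein coding. Bars rise from left to right for the KO calls up to the class of 2 to 3 (95.7%). For noncoding genes they fall from 3.64% of genes not called to 1.33% of calls under 1, then rise to 51.8% in the class of 3 or more.

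The transcript length that the mutant tables list for a gene also moved with the direction. FPKM divides by a length, and the mutant tables list a transcript length per gene while the control tables do not. The listed length need not be the exact divisor of the mutant FPKM. For 12972 genes the listed length was divided by the median length of the gene's GENCODE M21 transcripts. That median covers all annotated transcripts of the gene, short ones included (836 bases for Tln1, listed at 8560). A high ratio therefore need not mean that the listed length differs from the one used for the controls, which is unknown. In the tenth of genes with the lowest ratio (median 0.857) 28.4% were called higher and 5.93% lower in Y402F, and the median difference was 0.27. In the tenth with the highest ratio (median 6.48) 7.01% were called higher and 36.1% lower, and the median was -0.34. In KO the medians of these same groups of genes were 0.23 and -0.22. Across genes Spearman's coefficient was -0.35 with the Y402F difference and -0.24 with the KO difference, as a description. The order did not hold for each gene. Nsf and Syp rose with ratios of 5.04 and 5.35, and Calb1 and Camk2a with 3.90 and 2.86, while Cacna1g, Ptpn11 and Nptxr fell with 1.03, 1.01 and 1.01. The genes whose ratios are printed here and below were picked with their values in view. The part of length in any single call was not tested.

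Genes called in Y402F and not in KO were examined through the test of the difference of effects. Of the Y402F calls, 808 had an unadjusted p under 0.05 for that difference, and 392 of those were not called in KO. The conditions on overlap and level left 342 genes, 140 higher and 202 lower. In these the Y402F and KO libraries lay close together, with a median absolute log2 gap of 0.078, and the wild-type groups lay apart, with 0.606. The control groups had the larger gap in 331 of the 342 (96.8%), against 75.01% of all genes tested. Since the rule chose these genes on the same contrasts, the numbers describe the selection and test nothing. The wild-type groups also differed in sex pattern, and the part of sex in these gaps was not tested. Calls of 131 of the 342 held without each of the 4 libraries.

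Among the rises of this kind was Rpl36, a gene of the large ribosomal subunit, at 117 and 147 scaled FPKM in Y402F and at 64.3 and 64.7 in the controls (1.02, SE 0.13, limma adjusted p = 0.000739). In KO it was at 126 and 153 and in KO controls at 114 and 128, so the Y402F controls alone stood low. Ptger1, a prostaglandin E receptor gene whose exons overlap those of another gene, was at 5.76 and 6.23 against 1.61 and 1.54 (1.44). H2-T22, a nonclassical MHC class I gene, was at 8.78 and 8.05 against 3.12 and 4.14 (1.03). Mid1, a microtubule-associated ubiquitin ligase gene (1.02), and Aarsd1 (0.86) also held their calls without each library. Calls were lost for Nom1 without Y402F replicate 1 (0.82, limma adjusted p = 0.0879) and without control replicate 1 (0.65, 0.0573). They were also lost for the heat shock gene Hspb1 without Y402F replicate 1 (0.83, limma adjusted p = 0.0594) and for the globin gene Hba-a1 without Y402F replicate 2 (0.87, 0.0653).

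Among the falls the nuclear noncoding RNA Malat1 was at 19.8 and 9.43 scaled FPKM in Y402F and at 49.7 and 51.9 in its controls (-1.82, SE 0.29, limma adjusted p = 0.00215). KO libraries held 17.3 and 12 and KO controls 8.32 and 8.92, so the wild-type groups differed more than the mutants did. The difference of effects on Malat1 was -2.50 (unadjusted p = 0.000264, limma adjusted p = 0.122). Sipa1, a Rap GTPase-activating gene, fell from 17.5 and 15.2 to 3.85 and 4.36 (-1.76). Thbs3, a thrombospondin gene, fell from 6.94 and 6.75 to 0.559 and 1.36 (-2.03). Cacna1g, which encodes the T-type calcium channel Cav3.1, fell from 15.0 and 23.1 to 5.08 and 5.09 (-1.69). Listed lengths of Malat1, Sipa1, Thbs3 and Cacna1g were 11.5, 1.25, 4.30 and 1.03 times their GENCODE medians. Med12, a Mediator subunit gene (-1.70), and Bin3 (-1.82) were the other falls that held without each library. Suco lost its call without either Y402F library (limma adjusted p = 0.0732 and 0.0962) and with a term for sex pattern (0.0524), as did Rpgrip1l without Y402F replicate 2 (0.0917) and without control replicate 1 (0.0635).

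**Figure D4:**
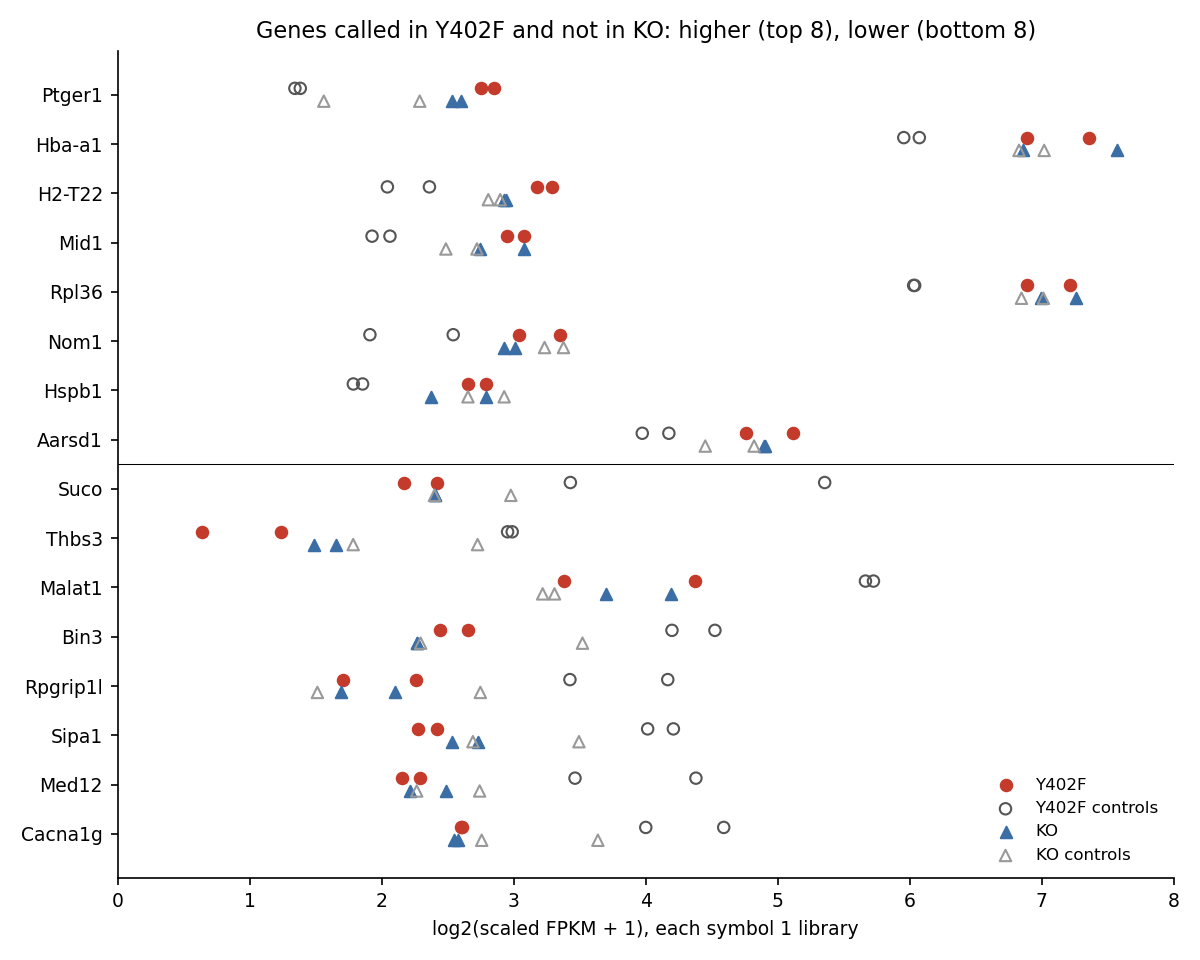
Levels in log2(scaled FPKM + 1) of 16 genes called in Y402F and not in KO, with 1 symbol for each of the 8 libraries. Open circles (Y402F controls) lie apart from filled circles (Y402F) in each gene. Filled triangles (KO) lie nearer to the filled than to the open circles, but for Thbs3 the gap between the mutants (-0.63) is about as wide as that between the control groups (0.72). For Rpl36 the Y402F controls stood low, with 64.3 and 64.7 against 117 and 147 in Y402F.

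Genes were then read by their roles in Pyk2 signalling and in the hippocampus, with 13% called higher and 19.3% called lower as the background of all genes. Among Pyk2, FAK and Src-family kinases with their regulators, 5 of 15 members tested fell and none rose, with a median difference of -0.28. The list includes Ptk2b, the gene knocked out in KO, whose fall there is part of the KO counts. The KO counts were 6 lower and 1 higher, and 3 of the falls held without each library. Fyn, the Src-family kinase prominent at synapses, fell from 70.6 and 87.0 to 48.3 and 48.9 scaled FPKM (-0.68, SE 0.11, limma adjusted p = 0.00242). Csk, which phosphorylates the inhibitory tail of Src-family kinases, fell by 0.79, and the phosphatase gene Ptpn11 fell by 0.63. Listed lengths of Fyn, Csk and Ptpn11 were 1.68, 5.01 and 1.01 times their GENCODE medians. Src was at 44.2 and 50.1 against 43.8 and 46.6 (0.06, limma adjusted p = 0.752), a gene named outside the rule and chosen after its values were seen. At the scale of the sum Fyn, Csk and Ptpn11 lay above their controls, while the list's median stayed below that of all genes (-0.13).

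Of 32 partners and substrates of Pyk2 tested, 10 fell and 5 rose in Y402F, with a median of -0.08. In KO 10 fell and 5 rose as well, and 9 of the falls and 3 of the rises were called in both lines. Cttn, which encodes the actin-binding Src substrate cortactin, fell from 206 and 197 to 64.8 and 64.5 scaled FPKM (-1.63, SE 0.10, limma adjusted p = 8.83e-06). Asap1, an Arf GTPase-activating protein gene, fell from 50.6 and 50.4 to 19.7 and 16.2 (-1.45). Pitpnm1, a phosphatidylinositol transfer protein that binds Pyk2, fell by 1.05, and the ubiquitin ligase gene Cbl fell by 1.47 without a call in KO (-0.61, limma adjusted p = 0.0683). The listed length was 5.24 times the GENCODE median for Cttn, 11.1 times for Cbl, 5.57 times for Pitpnm1 and 1.79 times for Asap1. Of these calls, 8 falls and no rise held without each library. Among integrins and focal adhesion linkers 6 of 28 tested fell and none rose (median -0.13), led by the talin gene Tln1 at 3.81 and 4.83 against 14.9 and 12.1 (-1.45), with 2 of the falls holding. The median of that list was 0.02 without control replicate 1. For Tln1 the listed length was 10.2 times the GENCODE median.

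In the Ras-ERK cascade, which carries growth factor and calcium signals to the nucleus, 10 of 25 members tested fell and 4 rose (median -0.24), and KO had 7 of each. Sos2, a Ras exchange factor, fell from 26.9 and 24.5 to 9.80 and 6.21 scaled FPKM (-1.59). Rasgrf2, the calcium-dependent exchange factor, fell by 0.87, and Rasgrp1, the diacylglycerol-dependent one, rose by 0.61. Without each library 5 falls and 1 rise held. Calmodulin kinases, PKA and CREB went the other way in number, with 13 of 33 tested higher and 6 lower (median 0.21), against 11 and 5 in KO. Camk2a, the plasticity kinase of excitatory neurons, rose from 981 and 961 to 1254 and 1348 (0.42, SE 0.07, limma adjusted p = 0.00281). The adenylyl cyclase genes Adcy1 and Adcy9 rose by 0.65 and 0.83. Camk2g fell from 111 and 118 to 49.1 and 50.7 (-1.18), and its listed length was 5.51 times the GENCODE median. Of these 19 calls, 5 rises and 2 falls held without each library.

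Spine actin regulators and their GTPases had 12 rises and 9 falls among 38 tested (median 0.18), close to the 14 and 8 in KO. Cfl2, a cofilin gene that severs actin filaments, fell from 73.5 and 74.3 to 23.8 and 19.7 scaled FPKM (-1.72, SE 0.14, limma adjusted p = 5.88e-05). Limk2, whose kinase inactivates cofilin, fell by 1.10, and Arhgef2, a guanine nucleotide exchange factor, fell by 1.06. Listed lengths of Cfl2, Limk2 and Arhgef2 were 2.57, 6.51 and 5.78 times their GENCODE medians. Without each library 5 rises and 7 falls held.

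Median differences of the 6 lists of synaptic and channel genes lay between 0.03 and 0.22, and 4 of the medians turned sign without Y402F replicate 1. They were those of glutamate receptors (-0.11), postsynaptic scaffolds (-0.12), potassium channels (-0.10) and GABA-A subunits (-0.0074). Without control replicate 1 the glutamate receptor median also turned (-0.02). With a term for sex pattern the medians of glutamate receptors (-0.11), potassium channels (-0.06) and postsynaptic scaffolds (-0.00084) turned. That of GABA-A subunits was then 0.02. Of 24 ionotropic and metabotropic glutamate receptors tested, 4 were higher and 2 lower (median 0.03), and none of those calls held without each of the 4 libraries. Gria1, an AMPA receptor subunit, was called at 241 and 204 scaled FPKM against 169 and 177 (0.36, limma adjusted p = 0.0193), and lost the call without Y402F replicate 1 (0.24, 0.0736) and without either control (0.103 and 0.0632). It also lost the call without scaling (0.125), with no intensity trend (0.0714) and with the 4 libraries of the line alone (0.0537). Of 29 postsynaptic scaffolds and AMPA receptor auxiliaries 4 rose and 5 fell (median 0.10). Dlg4, the PSD-95 gene, fell from 545 and 519 to 369 and 402.2 (-0.46, SE 0.08, limma adjusted p = 0.00267). Dlgap4, which encodes a scaffold that binds PSD-95, fell by 0.93. Both genes lay above their controls at the scale of the sum.

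In the synaptic vesicle release machinery 9 of 31 tested rose and 3 fell (median 0.18), against 11 and 3 in KO, and 3 rises and 1 fall held without each library. Napa, the gene of alpha-SNAP, fell from 358 and 351 to 128 and 146 scaled FPKM (-1.37, SE 0.10, limma adjusted p = 2.45e-05). Nsf, the ATPase that works with alpha-SNAP to take SNARE complexes apart, rose from 292 and 293 to 414 and 417 (0.51). The complexin gene Cplx2 rose by 0.51 and the synaptophysin gene Syp by 0.45. Of 24 voltage-gated potassium channels 5 rose and 4 fell (median 0.15), against 2 and 3 without Y402F replicate 1. Of 26 voltage-gated sodium, calcium and HCN channels 7 rose and 3 fell (median 0.22, and 0.04 without Y402F replicate 1). Kcnd3, an A-type channel gene, fell from 68.2 and 72.9 to 23.2 and 17.9 (-1.74), and Kcna1 rose by 0.83. Of 12 GABA-A receptor subunits 2 were higher and 1 lower, and none of these calls held without each library.

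Immediate early genes, which neurons transcribe within minutes of activity, were mostly near the control level in Y402F. Of 31 tested, 4 rose and 2 fell (median 0.10), near the background, while 19 rose and none fell in KO (median 0.55). Dusp5, an ERK phosphatase gene, rose from 8.34 and 8.76 to 14.7 and 16 scaled FPKM (0.77, SE 0.14, limma adjusted p = 0.00378), and Ier5 rose by 0.61. Egr2, a zinc-finger transcription factor, fell from 3.72 and 5.41 to 1.4 and 0.526 (-1.52, SE 0.27, limma adjusted p = 0.0034), with 23 and 9 expected counts behind the Y402F values. Egr2 was at 1.95 and 2.20 in KO and at 0.628 and 0.595 in KO controls. By group mean the Y402F controls were the highest and the KO controls the lowest, although Y402F replicate 2 lay below both KO controls. The difference of effects on Egr2 was -2.45 (unadjusted p = 0.000161, limma adjusted p = 0.0996). Jun was called at 0.39 (limma adjusted p = 0.036) and lost the call without Y402F replicate 2 (0.156) and without either control (0.0998 and 0.134). With the replicate number as a block Jun was not called (limma adjusted p = 0.0605), nor without scaling (0.162), with no intensity trend (0.0628) or with the 4 libraries of the line alone (0.073).

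The immediate early genes most used as activity markers were not called in Y402F with median-of-ratios scaling, and are named outside the rule, chosen after their values were seen. Egr1 was at 58.9 and 43.2 scaled FPKM against 38.9 and 40.5 (0.34, limma adjusted p = 0.139), and was called with quantile normalization (0.54, 0.0329) and without Y402F replicate 2 (0.56, 0.0393). In KO, Egr1 was at 66.0 and 81.3 against 19.1 and 18.5, so the KO controls were the lowest group. Arc was at 53.2 and 41.2 against 33.6 and 35.5 (0.43, limma adjusted p = 0.078), and was called with quantile normalization (0.63, 0.0209). Fos (-0.56) and Npas4 (-0.17) did not pass either. The difference of effects had an unadjusted p under 0.05 for 16 of the 31, all negative, against 13% of all genes, and was called for none. Its median over the list was -0.69.

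Clustered protocadherins, cell-surface proteins that give neurons their identity codes, had 13 rises and 2 falls among 48 tested (median 0.43), against 18 and 1 in KO. Pcdhga11 rose from 7.65 and 6.25 to 15.1 and 15.3 scaled FPKM (1.03), and Pcdhac2 from 12.8 and 12 to 21.4 and 20.8 (0.72). Pcdhgc4 fell from 74.0 and 73.0 to 4.62 and 3.61 (-3.87, SE 0.14, limma adjusted p = 7.62e-07). The isoforms of a cluster share constant exons, and 66.7% of the 48 have an exon that overlaps another gene, against 36.6% of all genes, so the division of reads among them is uncertain. Of these calls 6 rises and 1 fall held without each library. Relative to all genes the list's median was 0.44 without scaling, 0.40 with quantile normalization and 0.33 at the scale of the sum.

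Genes of the cytosolic ribosome and of the mitochondria moved in opposite directions in number. Of 77 cytosolic ribosomal proteins tested 47 rose and 8 fell (median 0.66), and 40 rises and 7 falls held without each library. Rpl17 rose from 36.3 and 41.9 to 415 and 500 scaled FPKM (3.51, SE 0.11, limma adjusted p = 4.91e-07), Rpl7a by 2.92 and Rpl23a by 2.68. Small nucleolar RNA genes lie inside all 3, and ribosomal protein genes have many processed copies in the genome, so their reads are uncertain. In KO 41 rose and 23 fell (median 0.36). The difference of effects had an unadjusted p under 0.05 for 35 members, all positive, with none called. Relative to all genes the Y402F median was 0.63 without scaling, 0.69 with quantile normalization and 0.83 at the scale of the sum.

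Of 82 nuclear genes of the respiratory chain 33 fell and 10 rose in Y402F (median -0.28), and 56 fell and 4 rose in KO (median -0.59). Cox7b, a subunit of cytochrome c oxidase, fell from 1443 and 1264 to 94.7 and 110 scaled FPKM (-3.71, SE 0.10, limma adjusted p = 3.42e-07). Ndufa11 of complex I fell by 2.29 and Cox6b1 by 1.10, whereas Atp5g2, which encodes subunit c of ATP synthase, rose from 51.8 and 57.2 to 136 and 151 (1.38). Without each library 21 falls and 4 rises held. Of 78 mitochondrial ribosomal proteins 25 fell and 7 rose (median -0.21), led by Mrpl17 at 5.48 and 4.64 against 46.8 and 35.5 (-2.79) and Mrpl11 (-2.22). The listed length of Mrpl17 was 6712 bases, 7.72 times its GENCODE median, that of Ndufa11 5.13 times and that of Cox7b 2.24 times. Relative to all genes the medians of both lists stayed below 0 in each scaling, at -0.11 for the respiratory chain and -0.07 for the mitochondrial ribosome at the scale of the sum. Without Y402F replicate 1 the respiratory chain had 22 falls and 10 rises (median -0.17) and the mitochondrial ribosome 15 falls and 7 rises (median -0.07). Without control replicate 2 the respiratory chain had 23 falls and 6 rises (median -0.18), and the mitochondrial ribosome 15 falls and 6 rises (median -0.24).

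Proteasome subunits were divided evenly, with 9 rises and 9 falls among 37 tested (median -0.02). Psma2 rose from 26 and 30.5 to 63.4 and 81.9 scaled FPKM (1.33), and Psmb10, an immunoproteasome subunit, fell from 41.1 and 54.9 to 17.4 and 14.9 (-1.503). Of 30 heat shock and ER chaperones 8 rose and 5 fell (median 0.25). Hspa8, the constitutive Hsc70 gene, rose from 730 and 725 to 1122 and 1075 (0.59, SE 0.06, limma adjusted p = 0.000194), and Manf, a secreted ER stress protein, fell by 1.25. SR and hnRNP splicing factors had 7 rises and 10 falls among 32. Hnrnph1 fell from 588 and 675 to 70.1 and 49.9 (-3.39), and Hnrnpa1 rose from 31.4 and 31.0 to 72.7 and 77.5 (1.24).

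Abundant long noncoding RNAs had 8 falls and 1 rise among 18 tested (median -0.85), against 6 and 5 in KO. Beside Gas5 and Malat1, Rian of the imprinted Dlk1-Dio3 region fell from 454 and 456 to 117 and 96.4 scaled FPKM (-2.09, SE 0.13, limma adjusted p = 1.06e-05), and Pantr1 fell by 2.65. Meg3 of the same imprinted region was at 63.8 and 33.2 against 80.7 and 71.5 (-0.71, limma adjusted p = 0.0753), a gene chosen after its values were seen, and was called lower without Y402F replicate 1 (-1.17, 0.00862). Meg3 was also called with the replicate number as a block (-0.71, limma adjusted p = 0.0436), with a term for sex pattern (-1.01, 0.0147) and without scaling (-0.86, 0.0402). Of the 9 calls 5 falls and 1 rise held without each library. Of 22 imprinted protein-coding genes 7 fell and 2 rose, with Ndn, a neuronal growth regulator of the Prader-Willi region, rising by 1.44. Among circadian genes 4 of 21 fell and 2 rose, led by the clock output factor Tef at 84.7 and 106 against 492 and 491 (-2.36). The listed length of Tef was 7.47 times its GENCODE median.

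The marker lists of dentate granule cells, CA1, CA2 and CA3 had median differences of 0.25, 0.24, 0.20 and 0.27. That of CA1 was 0.06 without Y402F replicate 1. In whole tissue, fewer cells of a type and less RNA per cell cannot be told apart. Of 15 dentate granule cell markers tested 4 rose and none fell (median 0.25), among them Calb1, the calcium-binding protein calbindin, from 26.7 and 23.5 to 46.0 and 38.2 scaled FPKM (0.72), and Lct (0.81). Summed over the list the level was 404 and 412.2 in Y402F and 332 and 312 in the controls. In KO 9 of these markers rose and none fell (median 0.44), with sums of 351 and 395 against 255 and 248 in KO controls. Of 12 CA1 markers 1 rose and 2 fell, and their sum was 349 and 338 against 347 and 353, so the groups overlapped. The CA2 sum overlapped as well, at 334 and 378 against 350.5 and 348, and the CA3 sum was 1155 and 1156 against 1024 and 1035. In KO the CA3 sum lay the other way, at 1106 and 1115 against 1164 and 1159 in KO controls. Of 13 CA3 markers 5 rose and 2 fell, with Chgb, which encodes a granin of secretory granules, rising by 0.64 and the angiotensin-related receptor gene Mas1 falling by 1.30. Map3k15, among the 4 rises of 12 CA2 markers, was at 13.3 and 12.4 against 0.220 and 0.367 (3.42), and it overlaps Pdha1. Of 23 interneuron markers 4 fell and 1 rose, with Reln, the reelin gene, falling by 1.13.

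Glial markers were mixed. Of 19 oligodendrocyte markers 8 rose and 3 fell (median 0.31). Opalin, a myelin protein gene, rose from 16.5 and 16.8 to 35.5 and 39.6 scaled FPKM (1.13), and Mobp, another, fell from 261 and 260 to 92.4 and 86.2 (-1.54). Their listed lengths were 0.385 and 4.82 times the GENCODE medians. Of 19 astrocyte markers 4 rose and 5 fell (median 0.02, and -0.04 without Y402F replicate 2). Aldoc, the brain aldolase, fell from 944 and 918 to 311 and 342 (-1.51), and Id4 rose by 0.73. The summed astrocyte markers were at 3083 and 3583 in Y402F and 4487 and 4386 in the controls. In KO they were at 3381 and 3670 against 6149 and 6262 in KO controls. Of 19 microglial markers 3 fell and none rose, with Aif1 falling by 1.23.

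Markers of choroid plexus, the epithelium that secretes cerebrospinal fluid, followed single libraries. Their summed level was 49.3 in Y402F replicate 1 and 773 in replicate 2, against 1174 and 1203 in the controls and 50.4 to 63.4 in the KO line. Ttr, the transthyretin gene and defining marker of this epithelium, was at 2.22 and 653 scaled FPKM against 1011 and 1028 (-4.47, limma adjusted p = 0.116), and without Y402F replicate 2 it was called at -8.31 (0.00135). Of 11 markers tested 6 were lower and 1 higher, and none of the lower calls held without each library. Without Y402F replicate 1, 1 was lower and 1 higher, and without replicate 2, 9 were lower and 1 higher. Folr1, a folate receptor gene, was called at 0.274 and 1.63 against 5.87 and 3.91 (-1.66), and lost the call without Y402F replicate 1 (limma adjusted p = 0.115), without control replicate 1 (0.0814) and with a term for sex pattern (0.0631). Kcnj13, an inward rectifier channel gene, lost its call without Y402F replicate 1 (0.0706) and control replicate 2 (0.0747). Col8a1, a collagen gene, was the marker called higher (1.61). None of the 20 markers was at 0 in all libraries of either group, and their part in other calls was not tested.

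The alpha-globin copies differed in direction. Hba-a2 fell from 66.5 and 67.4 to 9.07 and 15.4 scaled FPKM (-2.40), Hba-a1 was at 117 and 163 against 61.0 and 66.3, and the log2 ratio of the pair's sum was 0.22. Among 21 interferon and MHC class I genes 3 fell and 1 rose. H2-K1 fell from 31.0 and 30.7 to 11.8 and 14.5 (-1.18), and H2-D1, a related and highly similar class I gene, rose from 11.3 and 10.01 to 16.6 and 19.7 (0.72). H2ac18, a replication-dependent histone gene, rose from 6.31 and 6.82 to 31.1 and 32.1 (2.11).

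Genes near Ptk2b on chromosome 14 were read as a group because they are linked to the edited allele. Of 20 tested 4 rose and 4 fell (median 0.18), and 1 rise and 4 falls held without each library. Stmn4, a stathmin-family gene of neurons, fell from 279 and 274 to 192 and 204 scaled FPKM (-0.48, SE 0.07, limma adjusted p = 0.00148), and Clu, the clusterin gene, from 911 and 876 to 638 and 710 (-0.41). Dpysl2, which encodes the axon guidance protein CRMP2, rose from 16.9 and 18.3 to 26.4 and 26.4 (0.56). All 3 were called in KO in the same direction, and at the scale of the sum Stmn4 and Clu lay above their controls.

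**Figure D5:**
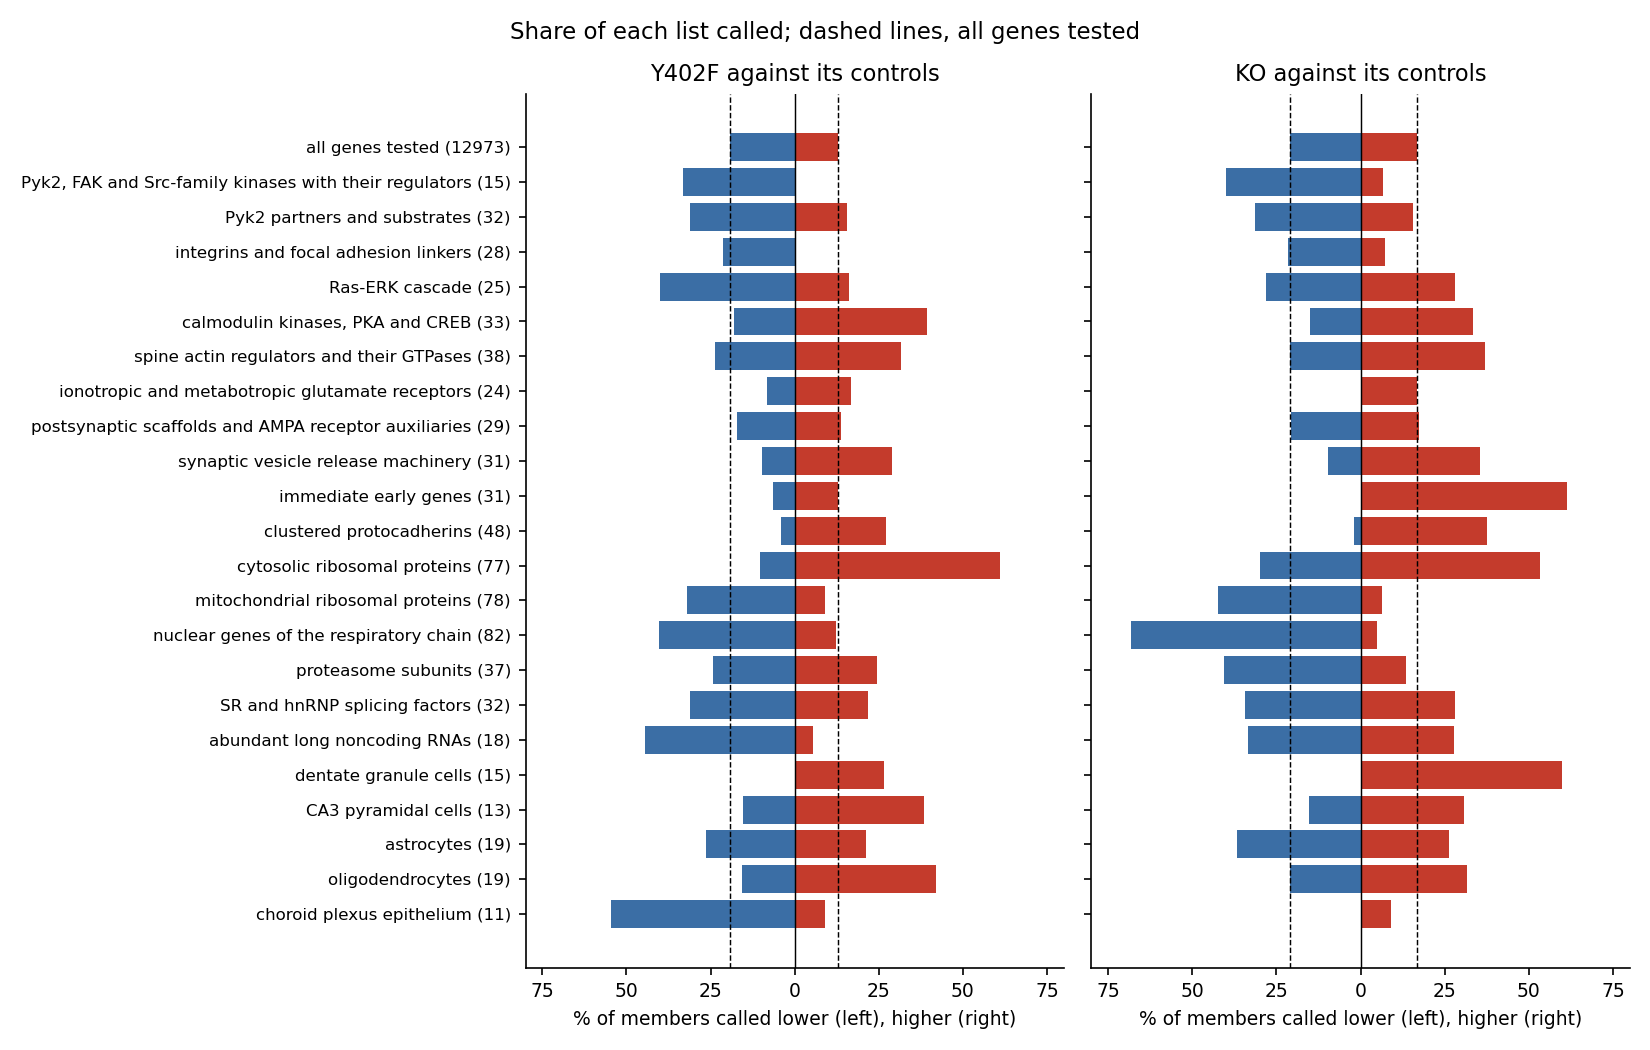
Percentage of the tested members of each list called lower (left of 0) and higher (right of 0) in Y402F against its controls (left panel) and in KO against its controls (right panel), with the number tested in brackets and the shares of all genes as dashed lines. Cytosolic ribosomal proteins lean to the right in both panels (47 and 41 of 77), and immediate early genes do so in KO with 19 of 31 against 4 of 31 in Y402F.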

How the data were processed

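RNA levels were read for the 4 libraries of the Y402F comparison and for the 4 of the KO line. For mutants, the authors deposited tables with an expected count, an FPKM value and, as another column, a transcript length per Entrez gene. For controls, the authors deposited FPKM with confidence bounds per Ensembl gene, laid out as Cufflinks does, without counts. The submitters' processing notes name Bowtie 1, HISAT and mm9 for all libraries, and Cufflinks for controls. Control positions match GRCm38 nevertheless (99.8% of 17703 genes share a start or end with a GENCODE M21 gene), so that build was used.

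Genes were joined by symbol (17625) or Entrez identifier (80), and 13 were dropped, which left 17705. Unmatched genes held 0.915 and 0.951% of the Y402F expected counts and 61.8 and 62.0% of the control FPKM. Values were scaled by the median of ratios, using 11462 genes with 1 FPKM or more throughout. Tests took genes with an average of 1 FPKM or more, on log2(scaled FPKM + 1), which understates changes of low genes. The test was limma 3.58.1 (trend on intensity, 4 groups, 4 residual degrees of freedom), tested on simulated data beforehand. Benjamini-Hochberg adjustment ran over all 12973 genes, and calls needed an adjusted p under 0.05. A count test was not possible without control counts. Software was Python 3.11.15 (numpy 2.4.6, pandas 2.3.3, matplotlib 3.10.9) and R 4.3.3.

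The members and gene lists were chosen with earlier results of these data known. Genes named are Ptk2b and Ptk2, and the 10 largest rises and 10 largest falls among calls without overlap of the 4 libraries and with at least 5 scaled FPKM in the higher group. To these are added the 8 largest rises and falls of that kind without a KO call and with an unadjusted p under 0.05 for the difference of effects. From each list up to 4 members, those of smallest p, may be named, and only some are printed. Some named genes are not reported here. Predicted genes, pseudogenes and microRNA, small RNA, mitochondrial and histone symbols were left out of the largest changes. Alternatives changed the pseudocount, filter, scaling, trend, libraries, replicate block, sex term and matching.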

Additional observations from a re-analysis of the deposited data

Results flagged for a closer look

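The difference between the Y402F and KO effects passed the adjustment for 4 genes, which the limma contrast of the effects picked out. Ptk2b had a difference of 2.52, with 352 and 394 scaled FPKM in Y402F against 55.8 and 68.4 in KO, and about the same level in both control groups. A830082N09Rik had a difference of 6.70 (limma adjusted p = 2.16e-05). It was at 2.60 and 1.89 in Y402F, 2.78 and 2.89 in Y402F controls and 2.85 and 2.05 in KO, and at 397 and 447 in KO controls, so 1 wild-type group stood apart from the other 3 groups. Rny1, a small cytoplasmic RNA, had a difference of 5.63 (limma adjusted p = 8.38e-05), with 2.38 and 2.29 in Y402F from 1 expected count in each library, 13.8 and 13.8 in KO controls, and 0 listed in the other 4 libraries. The microRNA gene Mir8104 had a difference of 4.42 (limma adjusted p = 0.000851), a value that depends on the pseudocount because it is listed at 0 in both KO libraries. It was at 22.8 and 18.2 in Y402F, from 8.32 and 6.86 expected counts, and at 0 or within rounding of it in every other library. Beside Ptk2b, these genes are not taken by the naming rule and were chosen after seeing their values.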

How the results depend on the processing

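Scaling by the sum over the shared genes called 10347 genes, 9978 higher and 369 lower, with 9955 in the same direction in KO. Genes called higher numbered 987 without scaling, 2730 with quantile normalization and 944 to 1134 when each library was left out in turn. Ptk2b passed with quantile normalization (0.36), the sum (1.42, limma adjusted p = 2.47e-06) and a sex term (0.34). Signs turned with quantile normalization for Ptk2 (0.0018), without control replicate 1 for Ptk2 (0.0030), without Y402F replicate 2 for Src (-0.030) and Npas4 (0.037), and without scaling for Src (-0.088). Quantile normalization cannot show a difference for Bc1 (0), the highest gene of every library. With each library left out in turn, Ptk2 ran from -0.31 to 0.0030, Src from -0.030 to 0.15 and Npas4 from -0.37 to 0.037. At the scale of the sum, where the median gene stood at 1.03, they turned for Ptk2 (1.00), Grin1 (0.94), Clu (0.79), Dlg4 (0.73), Stmn4 (0.72), Npas4 (0.62), Nptxr (0.57), Ptpn11 (0.54), Fyn (0.51), Meg3 (0.47), Fos (0.45), Csk (0.32), Rasgrf2 (0.28), Chn1 (0.27), Dlgap4 (0.26), Pitpnm1 (0.12), Arhgef2 (0.11), Cox6b1 (0.10), Limk2 (0.059) and Camk2g (0.0069). At the same scale 18 of the named falls kept their sign but lost their call. They were Asap1, Cbl, Tln1, Napa, Sos2, Malat1, Cacna1g, Med12, Suco, Rpgrip1l, Psmb10, Manf, Mas1, Aif1, Reln, Folr1, Kcnj13 and H2-K1. The cause was not tested beyond that shift of all genes.

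With the replicate number as a block, 1397 genes were called higher and 2390 lower, Ptk2b was not called, Jun lost its call (limma adjusted p = 0.0605) and Meg3 was called (0.0436). Deviations of same-numbered libraries correlated at -0.03 in the Y402F line and 0.05 in the KO line, so the numbers were not taken to pair the samples. Control depth is unknown, each group has 2 libraries, and low genes such as Egr2 rest on few counts. Leaving out a library leaves its group with 1, which is then assumed to vary like the others.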
